A study of Mus musculus with 6 samples.

Results

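The heat shock proteins and J-domain chaperones are 70 of the 19938 mouse genes that the arrays read with at least 1 probe set of a single gene symbol. They were taken by name: every gene whose symbol starts with Hspa, Hspb, Hspd, Hspe, Hsph, Hsp90, Dnaja, Dnajb or Dnajc, without Hspbap1 and Hspbp1, each read by its brightest probe set. By role, 11 of the 70 were placed in a heat-inducible class, 7 in a class induced by stress of the endoplasmic reticulum (ER), 16 in a class restricted mainly to other tissues, and the other 36 were called constitutive. Of the 70, 64 were bright enough to be tested, including all 11 heat-inducible and all 7 ER-stress-inducible genes.

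The cells were fibro/adipogenic progenitors (FAPs), the stromal progenitors of skeletal muscle, and the study concerned intronic polyadenylation of Pdgfra, the gene of a platelet-derived growth factor receptor. Vivo morpholinos (VMOs) are antisense oligomers that cover a site on an RNA and are injected into the living muscle. There were 3 groups of 2 arrays: the pA-VMO group, the 5'ss-VMO group and the control VMO group, named here as in the labels, which do not give the sequences of the oligomers or the target of the control VMO. Background knowledge of the design is that a morpholino on a polyadenylation site hinders its use, whereas a morpholino on the 5' splice site of the same intron hinders splicing there. All 6 arrays came from male C57/Bl6 wild-type mice of 8 to 12 weeks whose tibialis anterior muscles had received 30 µL of 50% glycerol, a chemical injury. The VMO was given 3 days later, and FAPs were isolated after another 2 days. The control group was therefore injured and injected as well, and no uninjured muscle and no muscle without a VMO was among these arrays. Each array held RNA of FAPs pooled from 4 mice, labelled from 100 ng of total RNA, so the spread between the arrays of a group is a spread between pools.

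Heat shock proteins bind unfolded or partly folded proteins. The Hsp70 proteins work in cycles of ATP hydrolysis, which J-domain proteins (Dnaja, Dnajb, Dnajc) start and Hsp110 proteins such as Hsph1 help to end by nucleotide exchange, while Hsp90 acts later on near-native clients and the small heat shock proteins (Hspb) hold unfolded proteins without using ATP. Genes of the heat-inducible class are known targets of heat shock factor 1, which binds heat shock elements, inverted repeats of the letters GAA, whereas chaperones of the ER lumen such as Hspa5 answer to the unfolded protein response through the ER stress element. In muscle, these proteins are known mainly from stressed and regenerating fibres.

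The upstream letters of 6 members are shown before the array values, since the classes rest on how these genes are switched on. The sequences below are the 250 bases before an annotated transcription start of each gene, from RefSeq on build GRCm38.p6. They are written 5' to 3' on the gene's own strand. A gene can have several annotated starts. The window shown for Dnaja4 lies inside the gene's RefSeq span, and that for Hsph1 lies partly inside it. Capitals mark heat shock elements of 2 units, spelled GAANNTTC or TTCNNGAA, which each read the same on both strands and overlap where units follow each other. In Hspa5 the capitals mark the ER stress element, the letters CCAAT and CCACG held apart by any 9 others, searched on both strands. The regions are chr17:34972157-34972406 on the minus strand for Hspa1a, chr5:135887669-135887918 on the plus strand for Hspb1, and chr5:149636316-149636565 on the minus strand for Hsph1. They are chr1:55087898-55088147 on the plus strand for Hspe1, chr9:54699309-54699558 on the plus strand for Dnaja4, and chr2:34771840-34772089 on the plus strand for Hspa5. Hspa1a, Hspb1, Hsph1 and Hspe1 are shown as heat-inducible genes, Dnaja4 as a constitutive-class gene that holds the element, and Hspa5 as an ER chaperone.
Hspa1a: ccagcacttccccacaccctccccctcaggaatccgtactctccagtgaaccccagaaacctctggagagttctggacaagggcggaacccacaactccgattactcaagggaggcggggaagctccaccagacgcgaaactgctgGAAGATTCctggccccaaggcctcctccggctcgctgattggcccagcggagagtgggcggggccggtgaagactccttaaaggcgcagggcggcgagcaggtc
Hspb1: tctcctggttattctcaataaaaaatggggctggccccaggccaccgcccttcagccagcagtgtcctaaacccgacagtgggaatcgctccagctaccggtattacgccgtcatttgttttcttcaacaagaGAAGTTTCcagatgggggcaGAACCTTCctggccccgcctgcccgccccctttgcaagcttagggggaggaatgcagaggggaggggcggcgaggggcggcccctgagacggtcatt
Hsph1: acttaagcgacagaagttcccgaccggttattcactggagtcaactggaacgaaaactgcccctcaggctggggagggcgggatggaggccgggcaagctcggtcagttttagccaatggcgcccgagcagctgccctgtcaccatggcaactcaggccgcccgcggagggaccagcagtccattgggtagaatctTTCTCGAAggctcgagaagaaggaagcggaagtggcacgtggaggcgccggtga
Hspe1: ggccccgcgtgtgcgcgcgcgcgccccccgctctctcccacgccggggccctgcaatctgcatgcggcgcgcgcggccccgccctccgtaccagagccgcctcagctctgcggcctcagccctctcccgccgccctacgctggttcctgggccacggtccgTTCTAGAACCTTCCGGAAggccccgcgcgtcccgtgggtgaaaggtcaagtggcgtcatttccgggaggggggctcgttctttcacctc
Dnaja4: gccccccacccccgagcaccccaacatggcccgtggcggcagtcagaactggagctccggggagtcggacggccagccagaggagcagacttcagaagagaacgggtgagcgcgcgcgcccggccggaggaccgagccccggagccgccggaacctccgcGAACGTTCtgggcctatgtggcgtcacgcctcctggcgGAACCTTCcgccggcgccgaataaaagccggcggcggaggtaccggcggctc
Hspa5: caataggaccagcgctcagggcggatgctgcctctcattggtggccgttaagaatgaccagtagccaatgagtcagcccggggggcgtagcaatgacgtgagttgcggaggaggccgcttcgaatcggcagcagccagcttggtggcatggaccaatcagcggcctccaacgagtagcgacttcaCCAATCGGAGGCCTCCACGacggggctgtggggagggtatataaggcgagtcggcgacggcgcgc

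Of the 70 members, 57 had an entry in the promoter table. Some genes had several entries, 1 per annotated start, and a gene was counted where any of them held a match. The 2-unit heat shock element was found in the 250 bases of 7 of 10 heat-inducible genes (70%): Dnaja1, Dnajb4, Hspa1a, Hspb1, Hspd1, Hspe1 and Hsph1. It was found in 3 of 27 constitutive genes (11.1%), which were Dnaja4, Dnajb6 and Dnajc27, and in 3932 of 27025 genes with a promoter entry (14.5%). Counted by entry, the element was in 8 of 16 heat-inducible entries (50%), 4 of 35 constitutive entries (11.4%) and 12.8% of all entries. Of the ER-stress-inducible genes, 1 of 6 held the element, Dnajc10, and of the tissue-restricted genes 2 of 14, Hspb3 and Hspb6. The longer spelling of 3 units, in which GAA and TTC alternate with any 2 letters between them, was in Hspd1, Hspe1 and Dnajb6 and in 0.514% of all genes. Hspd1 and Hspe1, the mitochondrial chaperonin and its co-chaperonin, are read in opposite directions from a shared stretch, so their matches are the same letters. The ER stress element was in 3 of 6 ER-stress-inducible genes, Dnajc3, Hsp90b1 and Hspa5, and in 35 of all 27025 genes (0.13%). A match describes letters in this window and is not a measured binding site.

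**Figure D1:**
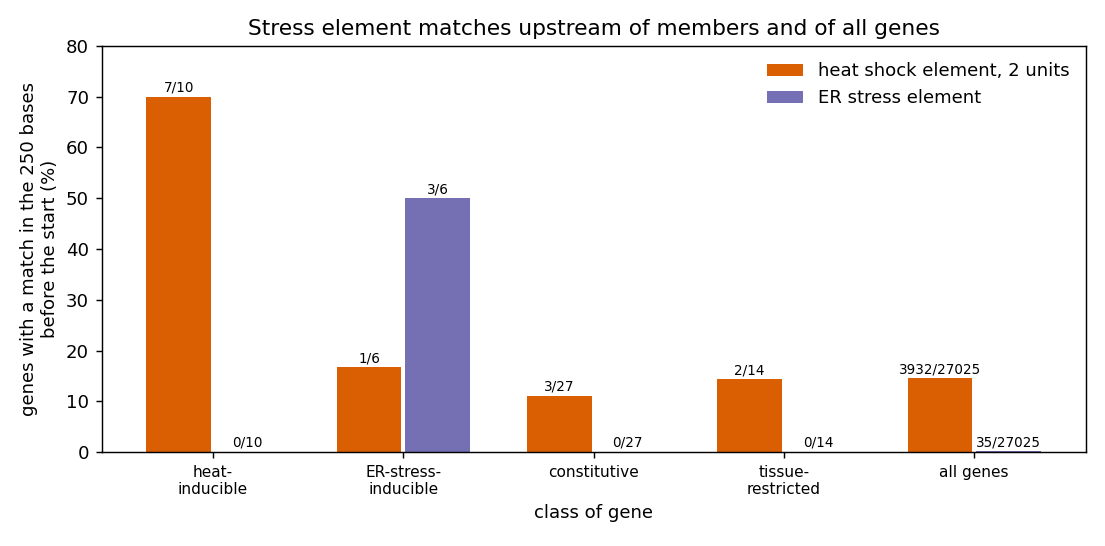
Share of genes (%) with a 2-unit heat shock element or an ER stress element in the 250 bases before any annotated transcription start, by class of member and for all genes with a promoter entry. The heat shock element was in 70% of the heat-inducible genes, 11.1% of the constitutive genes and 14.5% of all genes.

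All array values below are on the log2 scale of robust multi-array averaging (RMA), as deposited. A difference of 1 is a doubling, every difference is between means of 2 arrays, and errors are standard errors (SE) from a limma fit to all 6 arrays. A gene was called where its p-value, adjusted by Benjamini-Hochberg over the 14953 genes tested, was under 0.05. Levels of different probe sets were not set against each other. The arrays were alike as a whole, with correlations between 0.990 and 0.994. All 9 measured FAP markers were above the floor for testing (5.21), and so were all 10 macrophage markers and all 9 markers of satellite cells and myoblasts, as were 7 of 10 muscle fibre markers and 7 of 8 endothelial markers. Below the floor were the fibre markers Myh4, Myh1 and Pvalb and the endothelial marker Emcn. Pdgfra itself lay at 11.29 and 11.32 in the pA-VMO group, 11.31 and 11.29 in the 5'ss-VMO group and 11.37 and 11.24 in the control group, and so did not separate the groups. It was read by 1 probe set of its symbol, so forms of its RNA were not read separately. In such bulk RNA, fewer cells of a type and less RNA per cell cannot be told apart.

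The heat-inducible chaperones were lowest in the pA-VMO group. All 11 had a lower mean in the pA-VMO group than in the control group, where 44.8% of all genes did, with a median difference of -0.16. For Hspd1 that difference was only -0.01 on the probe set used, and its other probe set gave 0.007. All 11 also had a lower mean in the pA-VMO group than in the 5'ss-VMO group, where 48.5% of all genes did, with a median of -0.24. Against the control group, the 5'ss-VMO group was higher for 10 of the 11, where 50.4% of all genes were, with a median of 0.07. No member of any class passed the adjusted threshold in any of the 3 comparisons, so these are differences in one direction over a list whose members were not called individually. The background for the adjusted threshold was 0.00669% of all genes for pA-VMO relative to control, 0.582% for 5'ss-VMO relative to control and 0.0602% for pA-VMO relative to 5'ss-VMO.

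Hspa1a, the stress-inducible cytosolic Hsp70, lay at 10.66 and 10.58 in the pA-VMO group, 11.13 and 11.02 in the 5'ss-VMO group and 11.03 and 11.04 in the control group. Both pA-VMO arrays were below the other 4, and the 5'ss-VMO and control arrays overlapped. The pA-VMO group differed from the control group by -0.41 ± 0.070, a 1.33-fold lower level (limma adjusted p = 0.204), and from the 5'ss-VMO group by -0.46 ± 0.070, a 1.37-fold lower level (limma adjusted p = 0.0626). The 5'ss-VMO group differed from the control group by 0.05 ± 0.070, with a 95% interval of -0.11 to 0.20. The 250 bases before Hspa1a and those before its near-copy Hspa1b were the same at 247 positions, and the transcripts are also nearly alike, so the Hspa1a value may hold signal of Hspa1b. A probe set that carries both symbols read 11.14 and 11.06 in the pA-VMO group, 11.66 and 11.57 in the 5'ss-VMO group and 11.35 and 11.52 in the control group, with both pA-VMO arrays again below the other 4.

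Hspb1, the small heat shock protein that binds unfolded clients and actin, lay at 9.52 and 9.66 in the pA-VMO group, 10.14 and 10.07 in the 5'ss-VMO group and 9.78 and 9.87 in the control group. Its groups did not overlap in any of the 3 comparisons, with the pA-VMO arrays lowest and the 5'ss-VMO arrays highest. The pA-VMO group differed from the 5'ss-VMO group by -0.51 ± 0.075, a 1.43-fold lower level and the largest difference among the members (limma adjusted p = 0.0626). Against the control group, the difference was -0.24 ± 0.075 for pA-VMO (limma adjusted p = 0.314) and 0.28 ± 0.075 for 5'ss-VMO (limma adjusted p = 0.173). Its other probe set of the same symbol gave -0.51 for pA-VMO relative to 5'ss-VMO as well. Hspb8, a small heat shock protein that works with the co-chaperone Bag3, read 9.34 and 9.39 in the pA-VMO group, 9.44 and 9.56 in the 5'ss-VMO group and 9.46 and 9.51 in the control group. Both pA-VMO arrays were the lowest, by -0.12 against control and -0.13 against 5'ss-VMO, within 2 SE.

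Hsph1, the inducible Hsp110 that releases nucleotide from Hsp70, read 10.45 and 10.46 in the pA-VMO group, 10.84 and 10.77 in the 5'ss-VMO group and 10.60 and 10.71 in the control group. The 3 groups were apart, in the same order as for Hspb1. The difference was -0.35 ± 0.069 for pA-VMO relative to 5'ss-VMO (limma adjusted p = 0.0759), -0.20 ± 0.069 for pA-VMO relative to control and 0.15 ± 0.069 for 5'ss-VMO relative to control. Hspa4l, another Hsp110, was dimmer and less even, at 7.11 and 7.34 in the pA-VMO group, 7.54 and 7.41 in the 5'ss-VMO group and 7.42 and 7.23 in the control group. Its pA-VMO arrays were below the 5'ss-VMO arrays and overlapped the control arrays. Hsp90aa1, the inducible cytosolic Hsp90, read 12.27 and 12.30 in the pA-VMO group, 12.42 and 12.37 in the 5'ss-VMO group and 12.38 and 12.39 in the control group. Both pA-VMO arrays were the lowest, by -0.10 ± 0.063 against control and -0.11 ± 0.063 against 5'ss-VMO.

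The 3 heat-inducible J-domain partners of cytosolic Hsp70 had their lowest means in the pA-VMO group, and differed in whether the 5'ss-VMO or the control mean was higher. Dnajb1, the main heat-inducible Hsp40, read 10.35 and 10.31 in the pA-VMO group, 10.69 and 10.64 in the 5'ss-VMO group and 10.48 and 10.72 in the control group. Both pA-VMO arrays were below the other 4, while the control arrays lay far apart and enclosed the 5'ss-VMO arrays. The difference was -0.27 ± 0.086 for pA-VMO relative to control (limma adjusted p = 0.314) and -0.34 ± 0.086 for pA-VMO relative to 5'ss-VMO (limma adjusted p = 0.126). Dnaja1, a farnesylated J-domain protein, read 11.21 and 11.28 in the pA-VMO group, 11.50 and 11.47 in the 5'ss-VMO group and 11.42 and 11.52 in the control group. Again both pA-VMO arrays were the lowest, with differences of -0.22 ± 0.069 against control and -0.24 ± 0.069 against 5'ss-VMO. The other probe set of Dnaja1 alone gave -0.47 for pA-VMO relative to 5'ss-VMO. For 5'ss-VMO relative to control it gave 0.22, where the probe set used gave 0.02. A probe set shared by Mir207 and Dnaja1 went the other way, with 0.22 for pA-VMO relative to 5'ss-VMO and -0.15 for 5'ss-VMO relative to control. Dnajb4 read 10.04 and 10.10 in the pA-VMO group, 10.13 and 10.10 in the 5'ss-VMO group and 10.18 and 10.20 in the control group. It was the only heat-inducible member with a lower mean in the 5'ss-VMO group than in the control group, by -0.08 ± 0.064.

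The mitochondrial pair differed in its reading against the control group. Hspe1, the co-chaperonin, lay at 10.69 and 10.68 in the pA-VMO group, 10.92 and 10.91 in the 5'ss-VMO group and 10.80 and 10.88 in the control group, so that the groups were apart in all 3 comparisons. The differences were -0.16 ± 0.065 for pA-VMO relative to control and -0.23 ± 0.065 for pA-VMO relative to 5'ss-VMO (limma adjusted p = 0.149). Hspd1, the chaperonin, lay at 10.46 and 10.43 in the pA-VMO group, 10.64 and 10.58 in the 5'ss-VMO group and 10.42 and 10.49 in the control group. Here the pA-VMO and control arrays overlapped and the 5'ss-VMO arrays were the highest, by 0.16 ± 0.065 against control (limma adjusted p = 0.336). The other probe set of Hspd1 gave 0.007 for pA-VMO relative to control, where the probe set used gave -0.01, and 0.19 for 5'ss-VMO relative to control. Whether the genes of this pair differ from each other in their response was not tested.

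**Figure D2:**
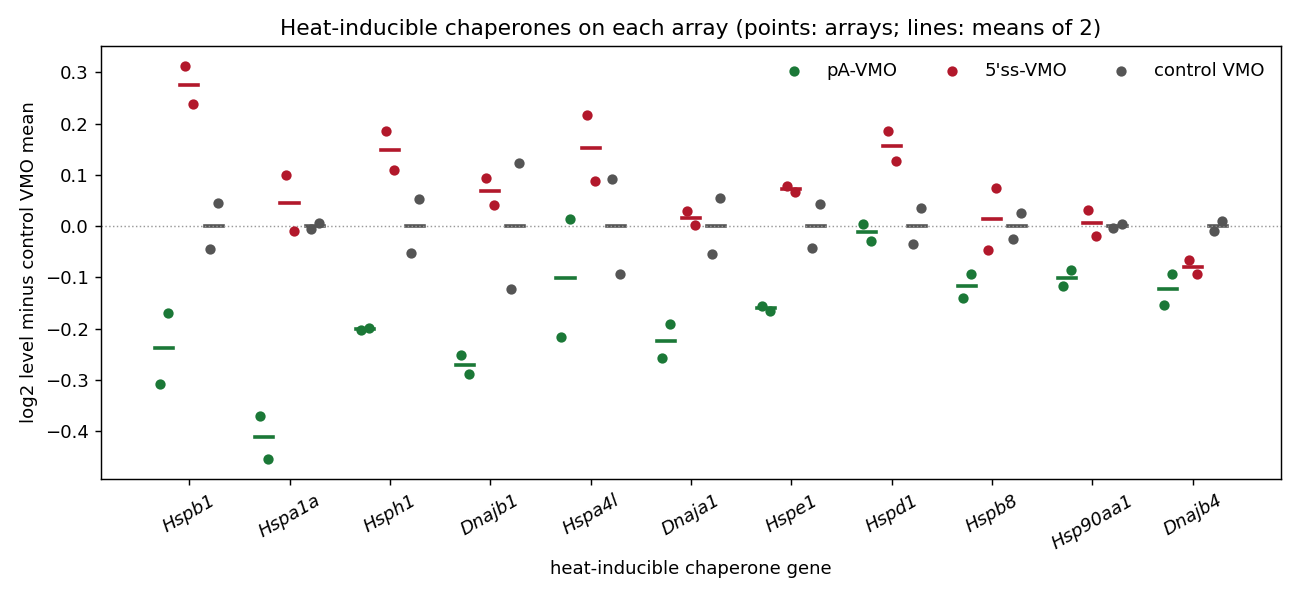
Level of each of the 11 heat-inducible chaperones on each array, as log2 level minus the gene's mean in the control VMO group. Points are arrays and short lines are means of 2, and the pA-VMO means are below 0 for all 11 genes, between -0.41 for Hspa1a and -0.01 for Hspd1.

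In counts, the heat-inducible class stood as follows. For pA-VMO relative to control, both pA-VMO arrays were below both control arrays for 9 of 11 genes (81.8%), where 18.8% of all genes had that pattern, and 6 of 11 had an unadjusted limma p under 0.05 in the lower direction, where 5.23% of all genes did. For pA-VMO relative to 5'ss-VMO, both pA-VMO arrays were below for 10 of 11 genes (90.9%), against a background of 23.7%, and 8 of 11 had an unadjusted p under 0.05 in the lower direction, against 7.11%. For 5'ss-VMO relative to control, both 5'ss-VMO arrays were above for 4 of 11 genes (36.4%), against 23.2% of all genes. Of the 11, 2, Hspb1 and Hspd1, had an unadjusted p under 0.05 in the higher direction, against 7.72%. The constitutive class had a like share in that comparison, with both 5'ss-VMO arrays above for 13 of 35 genes (37.1%). Among these 35, 5 had an unadjusted p under 0.05 in the higher direction. The median difference of all genes tested was 0.013 for pA-VMO relative to control, 0.001 for 5'ss-VMO relative to control and 0.004 for pA-VMO relative to 5'ss-VMO. The pA-VMO arrays are shared by the comparisons against control and against 5'ss-VMO, so these counts are not separate observations.

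Over all 64 tested members, 1 was higher and 8 were lower in pA-VMO relative to control at an unadjusted limma p under 0.05. Of all genes 11.4% passed in that comparison, 6.22% higher and 5.23% lower. For 5'ss-VMO relative to control 9 members were higher and 3 lower, where 13.9% of all genes passed, 7.72% higher and 6.19% lower. For pA-VMO relative to 5'ss-VMO 2 members were higher and 11 lower, where 15.9% of all genes passed, 8.81% higher and 7.11% lower. With a variance trend and robust moderation in limma's eBayes, 1 member was called for pA-VMO relative to control, Hspa1a with an adjusted p of 0.0117, where 0.328% of all genes were called. In that setting 1 was called for 5'ss-VMO relative to control, Hspb1, where 1.77% of all genes were called, and 6 were called as lower for pA-VMO relative to 5'ss-VMO, where 1.24% were called. These 6 were Dnaja1, Dnajb1, Hspa1a, Hspb1, Hspe1 and Hsph1, all of the heat-inducible class. With the floor at the 50th percentile, 4 members were called for pA-VMO relative to 5'ss-VMO, where 1.02% of all genes were called. These 4 were Hspa1a, Hspb1 and Hsph1 of the heat-inducible class and Dnajc24 of the constitutive class. With 2 pools against 2, an exact permutation test of a single value cannot give a two-sided p below 0.333, so the calls rest on the spread that the fit shares among genes.

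The constitutive class was centred near 0 in every comparison. Its 35 tested genes had a median difference of 0.01 for pA-VMO relative to control, with 19 above 0 and 16 below. It was 0.04 for 5'ss-VMO relative to control, with 22 above and 13 below, and -0.06 for pA-VMO relative to 5'ss-VMO, with 11 above and 24 below. Of all genes, 55.2%, 50.4% and 51.5% were above 0 and 44.8%, 49.6% and 48.5% below 0 in these comparisons. Hspa8, the constitutive cytosolic Hsp70, read 12.61 and 12.63 in the pA-VMO group, 12.74 and 12.65 in the 5'ss-VMO group and 12.69 and 12.64 in the control group. Its pA-VMO arrays were the lowest by a small margin, with a difference of -0.05 against control and a 95% interval of -0.20 to 0.10. Hspa9, the mitochondrial Hsp70, read 10.48 and 10.54 in the pA-VMO group, 10.51 and 10.51 in the 5'ss-VMO group and 10.48 and 10.40 in the control group. Hspa4, a constitutive Hsp110, and Dnaja2, a J-domain protein of the cytosol, differed by 0.06 and 0.02 for pA-VMO relative to control, with 95% intervals of -0.08 to 0.21 and -0.13 to 0.16. In that comparison, the interval of Hspa8 covers the heat-inducible median of -0.16, and those of Hspa9 (-0.08 to 0.22), Hspa4 and Dnaja2 do not. The rest of the class is mixed. Intervals of Dnajb6, Dnaja3, Dnajb12 and Dnajc1, among others, cover that median, and those of Dnajc9 and Dnajc17, among others, do not.

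A few constitutive members stood apart from the centre of their class. Dnajc24, a J-domain protein of the diphthamide pathway that modifies elongation factor 2, read 6.48 and 6.36 in the pA-VMO group, 6.75 and 6.79 in the 5'ss-VMO group and 6.54 and 6.56 in the control group. Its groups were apart in all 3 comparisons, with differences of -0.35 ± 0.069 for pA-VMO relative to 5'ss-VMO (limma adjusted p = 0.0802) and 0.21 ± 0.069 for 5'ss-VMO relative to control. Dnaja4 is a relative of Dnaja1 with 2 heat shock elements before the annotated start shown above. It read 7.91 and 7.87 in the pA-VMO group, 8.15 and 8.19 in the 5'ss-VMO group and 7.92 and 8.08 in the control group. Its order was also pA-VMO lowest and 5'ss-VMO highest, with -0.28 ± 0.073 for pA-VMO relative to 5'ss-VMO (limma adjusted p = 0.135).

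Dnajc12, a J-domain protein that serves the aromatic amino acid hydroxylases, differed the other way between the VMO groups. It read 5.68 and 5.53 in the pA-VMO group, 5.46 and 5.35 in the 5'ss-VMO group and 5.71 and 5.70 in the control group, close to the floor for testing. The 5'ss-VMO arrays were the lowest, by -0.31 ± 0.075 against control (limma adjusted p = 0.139), the lowest adjusted p of any member in that comparison. Dnajc17 read 6.53 and 6.62 in the pA-VMO group, 6.46 and 6.34 in the 5'ss-VMO group and 6.34 and 6.46 in the control group. It was the single member with an unadjusted p under 0.05 in the higher direction for pA-VMO relative to control, by 0.18 ± 0.076 (limma adjusted p = 0.42). Dnajc9, a histone chaperone, read 6.87 and 7.01 in the pA-VMO group, 6.94 and 6.99 in the 5'ss-VMO group and 6.80 and 6.76 in the control group, with both VMO groups above the control arrays, by 0.16 ± 0.072 for pA-VMO and 0.18 ± 0.072 for 5'ss-VMO. Dnajc28 read 5.45 and 5.39 in the pA-VMO group, 5.28 and 5.28 in the 5'ss-VMO group and 5.35 and 5.50 in the control group, near the floor, with the 5'ss-VMO arrays lowest. Dnajb6 was read under its own symbol alone by a dim probe set at 5.53 and 5.72 in the pA-VMO group, 6.01 and 5.70 in the 5'ss-VMO group and 6.11 and 5.73 in the control group, where the arrays of 1 group were as far apart as the groups. Another 4 probe sets, which carry the symbols of Gm4247 and Dnajb6, were brighter, and both pA-VMO arrays lay below both control arrays on each, with differences between -0.074 and -0.065.

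**Figure D3:**
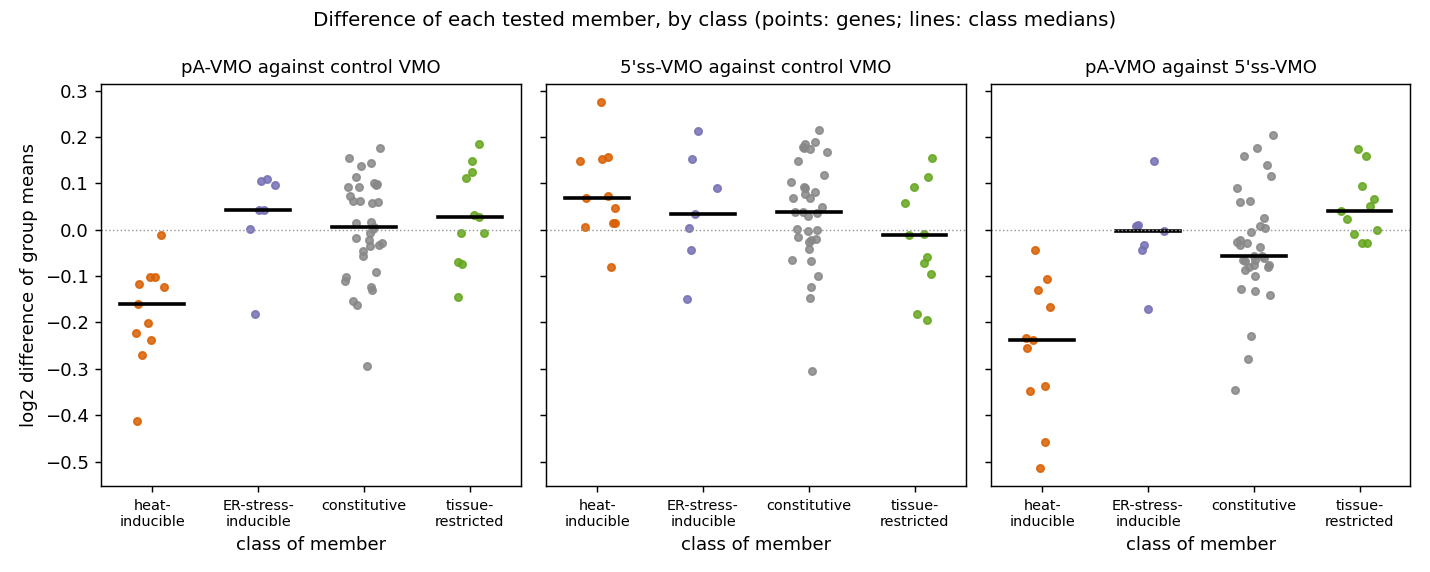
Log2 difference of group means for each of the 64 tested members, by class, in the 3 comparisons. Points are genes and lines are class medians, and the heat-inducible medians are -0.16 (pA-VMO relative to control), 0.07 (5'ss-VMO relative to control) and -0.24 (pA-VMO relative to 5'ss-VMO), while those of the other classes lie between -0.06 and 0.04.

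The ER-stress-inducible chaperones did not share the order of the heat-inducible ones. Their median difference was 0.04 for pA-VMO relative to control, 0.03 for 5'ss-VMO relative to control and -0.003 for pA-VMO relative to 5'ss-VMO. For pA-VMO relative to control, 6 of 7 were above 0 and 1 below, where 55.2% of all genes were above. Both pA-VMO arrays were above both control arrays for 5 of 7 (71.4%), where 24.1% of all genes had that pattern. Hspa5, the Hsp70 of the ER lumen also called BiP, read 12.15 and 12.15 in the pA-VMO group, 12.13 and 12.15 in the 5'ss-VMO group and 12.14 and 12.07 in the control group. The difference for pA-VMO relative to control was 0.04, with a 95% interval of -0.10 to 0.19. Hsp90b1, the Hsp90 of the ER, read 11.87 and 11.87 in the pA-VMO group, 11.81 and 11.91 in the 5'ss-VMO group and 11.82 and 11.73 in the control group. For Hspa13, an ER-associated Hsp70 relative, all 3 differences were under 0.01 in size.

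The ER J-domain proteins went in different directions. Dnajb9, which holds the stress sensor Ire1 inactive with Hspa5, read 9.99 and 9.92 in the pA-VMO group, 10.01 and 9.96 in the 5'ss-VMO group and 10.10 and 10.17 in the control group. Both VMO groups lay below the control arrays, by -0.18 ± 0.066 for pA-VMO and -0.15 ± 0.066 for 5'ss-VMO (limma adjusted p = 0.364 and 0.358). Dnajb11, a partner of Hspa5 in folding, read 8.51 and 8.49 in the pA-VMO group, 8.65 and 8.69 in the 5'ss-VMO group and 8.48 and 8.43 in the control group. Its 5'ss-VMO arrays were the highest, by 0.21 ± 0.063 against control (limma adjusted p = 0.208). Dnajc3, an inhibitor of eIF2alpha kinases that also acts in the ER lumen, read 10.06 and 10.06 in the pA-VMO group, 10.08 and 10.12 in the 5'ss-VMO group and 9.99 and 9.91 in the control group. Here both VMO groups lay above the control arrays, by 0.11 ± 0.065 for pA-VMO and 0.15 ± 0.065 for 5'ss-VMO. Dnajc10, a disulfide reductase with a J domain, differed by 0.10 ± 0.068 for pA-VMO relative to control and -0.04 ± 0.068 for 5'ss-VMO relative to control.

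Of the 16 tissue-restricted members, 11 were tested, and Hspa1l, Dnajc5g, Dnajb3, Dnajc5b and Dnajb7 were below the floor, as was the constitutive-class gene Dnajc22. Their median differences were 0.03 for pA-VMO relative to control, -0.01 for 5'ss-VMO relative to control and 0.04 for pA-VMO relative to 5'ss-VMO. Hspb7, a small heat shock protein of heart and skeletal muscle, read 6.80 and 6.88 in the pA-VMO group, 6.60 and 6.89 in the 5'ss-VMO group and 6.73 and 6.58 in the control group, and the pA-VMO arrays were above the control arrays by 0.19 ± 0.101. Hspb6, of smooth and striated muscle, read 7.13 and 7.02 in the pA-VMO group, 7.03 and 7.18 in the 5'ss-VMO group and 7.17 and 6.92 in the control group, with all groups overlapping. Hspa12b, a distant Hsp70 relative known from endothelium, overlapped as well, at 6.32 and 6.02 in the pA-VMO group, 6.07 and 6.28 in the 5'ss-VMO group and 5.87 and 6.25 in the control group. Hspb9, known from testis, read 6.48 and 6.56 in the pA-VMO group, 6.40 and 6.32 in the 5'ss-VMO group and 6.31 and 6.43 in the control group, and its pA-VMO arrays were the highest, by 0.15 ± 0.073 against control. Hspb3, of muscle, had the lowest unadjusted p of the class, with 5.39 and 5.43 in the pA-VMO group, 5.29 and 5.43 in the 5'ss-VMO group and 5.46 and 5.65 in the control group, and a difference of -0.20 ± 0.083 for 5'ss-VMO relative to control (limma adjusted p = 0.339).

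Heat-inducible and constitutive members were also compared within each array, which removes any shift common to both. Each gene was set against its mean over the 6 arrays and the median was taken per class. The heat-inducible median minus the constitutive median was -0.15 and -0.12 on the pA-VMO arrays, 0.11 and 0.08 on the 5'ss-VMO arrays and 0.01 and 0.10 on the control arrays. Both pA-VMO arrays were below the other 4, while the 5'ss-VMO and control arrays overlapped. The ER-stress-inducible median on the same scale was 0.02 and 0.01 on the pA-VMO arrays, -0.02 and 0.02 on the 5'ss-VMO arrays and 0.01 and -0.07 on the control arrays, and did not follow that order. Over both inducible classes together, the median difference for pA-VMO relative to control was -0.11, with 6 of 18 genes above 0, and for pA-VMO relative to 5'ss-VMO it was -0.15, with 3 of 18 above 0. The members were taken with earlier results of these arrays known, so this is a description without a p-value.

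The immediate-early genes, transcription factors and regulators such as Fos, Jun and Zfp36 that respond within minutes to stimulation, were also lowest on the pA-VMO arrays. Within the pA-VMO and 5'ss-VMO groups, the 2 arrays were in the opposite order to that of the heat-inducible genes. The median of 18 immediate-early genes per array, on the same scale, was -0.10 and -0.17 on the pA-VMO arrays, 0.08 and 0.11 on the 5'ss-VMO arrays and 0.03 and 0.08 on the control arrays. For pA-VMO relative to 5'ss-VMO, all 18 were lower on both pA-VMO arrays, with a median of -0.22, where 23.7% of all genes had that pattern. Zfp36, which destabilises mRNAs, read 10.81 and 10.67 in the pA-VMO group, 11.15 and 11.19 in the 5'ss-VMO group and 11.03 and 11.11 in the control group. Their part in the heat-inducible result was not tested, and limma called 0 genes in either list. At an unadjusted p under 0.05, 12 of the 18 immediate-early genes were lower in the pA-VMO group than in the control group, where 5.23% of all genes were, and 12 of the 18 than in the 5'ss-VMO group, where 7.11% were.

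Levels of cell type markers differed between the groups as well. For 5'ss-VMO relative to control, limma called the macrophage markers C1qa and C1qc, the myoblast marker Chrna1 and the endothelial marker Cdh5 as higher. It called the FAP marker Dpp4 as lower, and 0.582% of all genes were called in that comparison. The mean log2 level of the 9 satellite cell and myoblast markers was 6.48 and 6.51 on the pA-VMO arrays, 6.85 and 6.75 on the 5'ss-VMO arrays and 6.41 and 6.57 on the control arrays, highest on the 5'ss-VMO arrays. The mean of the 10 macrophage markers was 7.01 and 7.01 on the pA-VMO arrays, 7.17 and 7.10 on the 5'ss-VMO arrays and 6.75 and 6.95 on the control arrays. The mean of the 9 FAP markers was 11.21 and 11.25 on the pA-VMO arrays, 11.22 and 11.20 on the 5'ss-VMO arrays and 11.38 and 11.31 on the control arrays. The FAP markers were uneven for 5'ss-VMO relative to control, with 7 below 0 and 2 above, where 49.6% of all genes were below. Dpp4 differed by -0.52 and Lum by -0.33, Pdgfra by -0.005 and Col3a1 by -0.03, and Col1a1 and Thy1 by 0.04 and 0.06. The mean of the 7 tested endothelial markers was 6.22 and 6.24 on the pA-VMO arrays, 6.36 and 6.33 on the 5'ss-VMO arrays and 6.03 and 6.16 on the control arrays. These 7 did not all go 1 way for 5'ss-VMO relative to control, with 5 above 0 and 2 below, among them Tek by -0.19 ± 0.075. For pA-VMO relative to control, 4 of the 9 satellite cell and myoblast markers were above 0 and 5 below, where 55.2% of all genes were above. In that comparison 8 of 10 macrophage, 5 of 7 endothelial and 3 of 9 FAP markers were above 0. Between pA-VMO and 5'ss-VMO, all 9 satellite cell and myoblast markers had a lower mean in the pA-VMO group, as the 11 heat-inducible chaperones did, and 8 of the 9 (88.9%) were lower on both pA-VMO arrays, where 23.7% of all genes were, with a median of -0.17. Their part in the differences between the VMO groups was not tested.

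**Figure D4:**
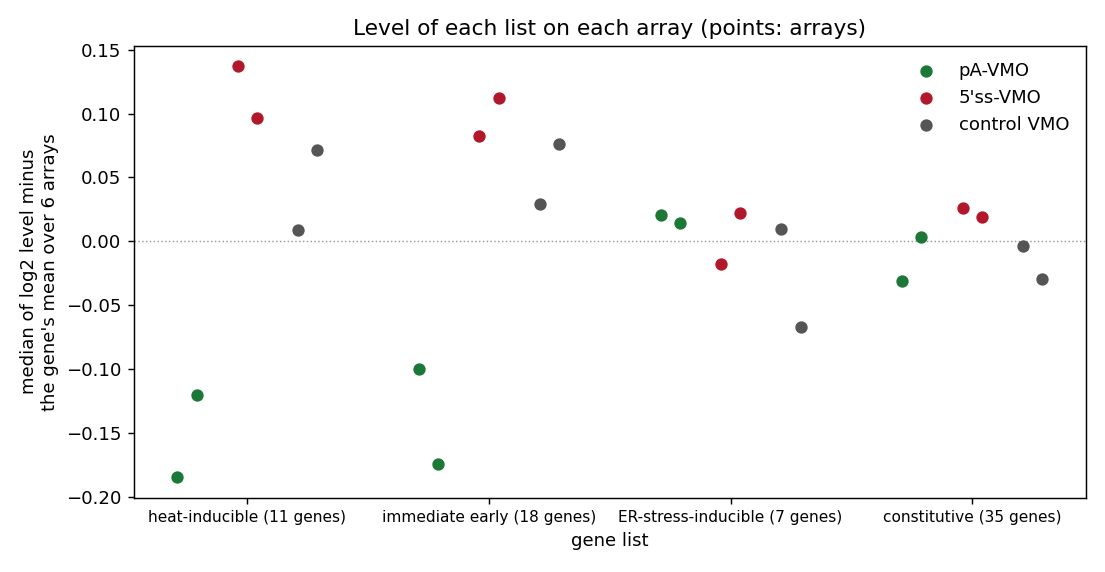
Median over each gene list, on each array, of the log2 level minus the gene's mean over the 6 arrays. Points are arrays, and the heat-inducible and immediate-early medians are below 0 on both pA-VMO arrays and above 0 on the other 4.

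The regulators and co-chaperones around these proteins were less uniform. The list of heat shock factors and co-chaperones held 25 tested genes, mostly of the cytosol, with Grpel1 and Grpel2 of mitochondria and Sil1 of the ER among them. Limma called 0 of the 25 in each comparison. At an unadjusted p under 0.05, 2 were higher and 2 lower for pA-VMO relative to control, where 6.22% of all genes were higher and 5.23% lower, with a median of 0.02. For 5'ss-VMO relative to control 4 were higher and 0 lower, where 7.72% and 6.19% of all genes were. In that comparison 20 of 25 lay above 0, where 50.4% of all genes did, with a median of 0.07. Both 5'ss-VMO arrays were higher for 11 (44%), where 23.2% of all genes had that pattern. Between pA-VMO and 5'ss-VMO 0 were higher and 3 lower at an unadjusted p under 0.05, where 8.81% and 7.11% of all genes were. Both pA-VMO arrays were lower for 11 (44%), where 23.7% of all genes had that pattern, with a median of -0.05. Bag3, the partner of Hspb8 and Hsp70 in selective autophagy, read 11.14 and 11.10 in the pA-VMO group, 11.30 and 11.29 in the 5'ss-VMO group and 11.29 and 11.29 in the control group, a difference of -0.17 ± 0.062 for pA-VMO relative to control (limma adjusted p = 0.373). Hsf2, a heat shock factor, read 6.59 and 6.58 in the pA-VMO group, 6.78 and 6.78 in the 5'ss-VMO group and 6.79 and 6.71 in the control group. For both genes the pA-VMO arrays were the lowest. Fkbp4, an immunophilin partner of Hsp90, lay instead above the control group in both VMO groups, by 0.18 ± 0.070 for pA-VMO and 0.23 ± 0.070 for 5'ss-VMO.

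The 19 genes of the cytosolic chaperonin and other chaperones had medians of 0.06, 0.04 and 0.02 for pA-VMO relative to control, 5'ss-VMO relative to control and pA-VMO relative to 5'ss-VMO. Limma called 0 of them, and at an unadjusted p under 0.05 there was 1 of 19 higher in each comparison with the control group, where 6.22% and 7.72% of all genes were, and 1 lower between the VMO groups, where 7.11% were. These counts are near the share over all genes. Among them Cct3, a subunit of the TRiC chaperonin, read 9.96 and 9.97 in the pA-VMO group, 9.79 and 9.86 in the 5'ss-VMO group and 9.74 and 9.75 in the control group, so that the pA-VMO arrays were the highest. The 18 genes of the ER unfolded protein response outside the members had medians of 0.07, 0.04 and 0.01. Limma called 0 of them, with 2 higher and 2 lower, 3 higher and 0 lower, and 0 higher and 2 lower of 18 at an unadjusted p under 0.05, where those shares over all genes were 6.22% and 5.23%, 7.72% and 6.19%, and 8.81% and 7.11%. Ddit3, the stress transcription factor CHOP, read 7.80 and 7.83 in the pA-VMO group, 8.22 and 8.11 in the 5'ss-VMO group and 7.96 and 8.00 in the control group, and differed by -0.35 ± 0.068 for pA-VMO relative to 5'ss-VMO (limma adjusted p = 0.0718). Its groups were apart in all 3 comparisons, in the order seen for Hspb1 and Hsph1.

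Leaving out each array in turn kept the heat-inducible median below 0 for pA-VMO relative to control, between -0.20 and -0.15, and for pA-VMO relative to 5'ss-VMO, between -0.27 and -0.21. For 5'ss-VMO relative to control it lay between 0.03 and 0.09, and without the first control array 7 of 11 genes were above 0, in place of 10. For pA-VMO relative to control, 10 of 11 genes were below 0, in place of 11, without the second control array or without either pA-VMO array. Pseudogene copies of Dnaja1, Hspd1, Hspe1 and Hspa9 are listed in the RefSeq gene table, and probes that read such near-identical copies can make the values of these genes uncertain.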

How the data were processed

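RNA of FAPs from 3 groups of 2 pools each was read on Affymetrix Mouse Gene 1.0 ST arrays. The log2 values were deposited by the authors after RMA in Affymetrix Expression Console, per the submitters' processing notes. Their versions and settings were not given in the sources used here. The method equalises the arrays, so a change in total RNA per cell is not visible. The table held 35556 probe sets, of which 21789 had 1 symbol in the platform annotation, 1621 several and 12146 none. The brightest probe set stood for each of 19938 genes, and the 14953 genes with a mean at or above the 25th percentile (5.21) were tested.

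A linear model of group means over all 6 arrays was fitted in R 4.3.3 by limma 3.58.1, moderated by eBayes with no trend, and two-sided p-values were adjusted by Benjamini-Hochberg over all genes tested. The code was tested on simulated data. No more than 2 arrays a group limit the precision. The labels do not say how mice were assigned to pools, and p-values measure the spread between these pools only.

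The members and all gene lists were chosen with earlier results of these data known. Named members were fixed by role, with the 4 smallest p-values per comparison and direction added, and for other lists the 3 smallest p-values per comparison, of which some are given. Hspa1b and Hsp90ab1 have no probe set of their own symbol alone and were not analysed here beyond the shared Hspa1a and Hspa1b probe set. Motifs were searched with Python 3.11.15 in the RefSeq promoter table (GRCm38.p6). Alternatives covered the filter, probe set choice, centring, quantile normalization, eBayes options, the arrays fitted, a replicate block and leaving out each array.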

Additional observations from a re-analysis of the deposited data

Results flagged for a closer look

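The probe sets below carry several gene symbols and enter no test or class count of the report. They are given because both arrays of a VMO group were above both control arrays. These differences were not tested, and all values are log2 differences of means of 2 arrays. The 2 probe sets shared by Dnajb14 and Pin4 differed by 0.0536 and 0.0558 for pA-VMO against control, and by 0.066 and 0.0604 for 5'ss-VMO against control. The probe set shared by Mir207 and Dnaja1 differed by 0.0706 for pA-VMO against control, in the direction opposite to the -0.22 of the probe set that stood for Dnaja1. The probe set shared by Hspa1a and Hspa1b differed by 0.18 for 5'ss-VMO against control. The 2 probe sets shared by Hspa8 and the small nucleolar RNAs Snord14c and Snord14d, which lie in Hspa8 introns, differed by 0.301 and 0.3 for 5'ss-VMO against control, while the probe set that stood for Hspa8 differed by 0.03.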

How the results depend on the processing

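With 2 pools a group and a median SE of 0.074, small differences cannot be resolved, and the count of members called depends on the model. No member was called in the fit reported. With a variance trend and robust moderation, 1 was called for pA-VMO relative to control, 1 for 5'ss-VMO relative to control and 6 for pA-VMO relative to 5'ss-VMO, and 49, 265 and 186 of all genes, in place of 1, 87 and 9. With the filter at the 50th percentile, 4 members were called for pA-VMO relative to 5'ss-VMO (Dnajc24, Hspa1a, Hspb1 and Hsph1), where 1.02% of 9969 genes were called, and with the mean of all probe sets of a gene 1 was (Hspb1, adjusted p = 0.0494), where 0.1% were. The causes were not tested. The other settings, including leaving out each array, called 0 members in every comparison. The heat-inducible medians ranged, leaving out 1 array, from -0.2035 to -0.1468 for pA-VMO relative to control, from 0.0309 to 0.0937 for 5'ss-VMO relative to control and from -0.2726 to -0.2053 for pA-VMO relative to 5'ss-VMO. The labels do not say whether replicate numbers pair the pools. Deviations of same-numbered arrays correlated at -0.102 (pA-VMO and control), 0.0207 (5'ss-VMO and control) and -0.0345 (pA-VMO and 5'ss-VMO). With 1 such deviation per group, these values cannot show whether the pools were handled as pairs. With the replicate block, 0 members were called in each comparison, and 23 of all genes, in place of 9, for pA-VMO relative to 5'ss-VMO. With the control numbers crossed, a setting chosen after seeing the data, 0 members and 1 gene overall were called for pA-VMO relative to control. Among 1207 alternative values of single members, 48 had the other sign, none from a difference above 0.114 in size.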

Other observations

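Dnajc13, an endosomal J-domain protein, was read by 15 probe sets of that symbol, and they did not give the same differences. The brightest, used for the gene, read 9.83 and 9.80 in the pA-VMO group, 9.82 and 9.85 in the 5'ss-VMO group and 9.79 and 9.71 in the control group. Another, singled out after its values were seen, read 7.03 and 7.32 in the pA-VMO group, 7.88 and 7.66 in the 5'ss-VMO group and 7.91 and 7.65 in the control group. Both of its pA-VMO arrays lay below the other 4, by -0.60 against control and -0.59 against 5'ss-VMO. Over the 15 probe sets, the difference for pA-VMO against control ran between -0.60 and 0.17. The stretch of the transcript that each probe set reads was not analysed here.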
